A study of Mus musculus with 12 samples.

Results

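The unfolded protein response genes described here are 10 genes chosen by name: Hspa5, Hsp90b1, Sdf2l1, Dnajb9, Herpud1, Ern1, Xbp1, Ddit3, Ppp1r15a and Trib3. Each was found once in both deposited count tables, so that all 10 members were available out of 52636 genes listed. After 4 h with CGRP, 1 of the 9 members that could be tested in macrophages was called, near the share of all genes called there (7.43%). Ern1, which encodes the stress sensor IRE1alpha, rose 2.0-fold in macrophages, and that call was lost in several alternative settings given below. In neutrophils 0 of 10 members passed the test, where 2.53% of all genes did. The larger difference lay between the cell types before treatment, where 9 of 10 members differed, beside 67.9% of all genes. The chaperones of the endoplasmic reticulum (ER) were higher in macrophages, and Ddit3, Ppp1r15a and Herpud1 were higher in neutrophils. Trib3 was also higher in neutrophils, but it entered that test only through them.

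The study asked how CGRP (calcitonin gene-related peptide), a neuropeptide released by sensory neurons, acts on myeloid cells. The cells came from the bone marrow of C57BL/6J mice aged 8 to 12 weeks with no transgene or deletion named, and 4 groups of 3 libraries were made (12 in all). Neutrophils were enriched with a negative-selection kit and treated directly in RPMI medium. Monocytes were isolated with a kit, kept in culture with M-CSF (10 ng/ml, 3 days), which drives them to become macrophages, and treated in DMEM/F12 medium; the labels call them monocyte/macrophage, and they are called macrophages here. Each cell type received 1 nM CGRP or the saline vehicle (PBS) for 4 h. The sources used here do not say whether the 3 libraries of a group came from separate mice, so that p-values measure the spread between these libraries, which may be technical.

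Molecules were counted from the 3′ ends of polyadenylated RNA with unique molecular identifiers. The total count per library was 2719556 to 3631989 in saline neutrophils, 2196558 to 3270388 in CGRP neutrophils, 2536415 to 3477069 in saline macrophages and 2002559 to 3259073 in CGRP macrophages. Levels are given as CPM, the count scaled to a common library size with TMM factors over the 12 libraries, and are compared between libraries and not between genes. Counts from 3′ ends do not separate spliced from unspliced Xbp1 RNA, so the splicing step that reports IRE1 activity was not measured. In such pooled RNA, fewer cells of a type and less RNA per cell cannot be told apart.

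The labelled cell types were checked against marker genes. The 10 neutrophil markers summed to 192542 ± 37379 CPM (mean ± SD, n = 3) in saline neutrophils, led by S100a8, and to 342 ± 47.0 CPM in saline macrophages. The 10 monocyte/macrophage markers summed to 11116 ± 275 CPM in saline macrophages, led by C1qb at 4240 CPM, and to 3447 ± 402 CPM in saline neutrophils, led by Ly6c2. All 10 neutrophil markers were lower in macrophages, and 8 of the 10 monocyte/macrophage markers were higher there. The other 2, Ly6c2 and Ms4a4c, named after their values were seen, were lower in macrophages at 31.2 and 14.4 CPM, against 2688 and 75.0 CPM in neutrophils. The neutrophil libraries also carried RNA of other markers, such as erythroid and early granulocyte ones, which were far lower in macrophages. Pooled RNA does not say which cells held these markers. The values of these markers, and the marker sums that were higher in macrophages, stand beside the resting comparison.

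The unfolded protein response restores protein folding in the ER, where secreted and membrane proteins are made. Hspa5 (BiP) binds unfolded proteins and holds the sensors IRE1, PERK and ATF6 inactive until it is drawn away. IRE1 splices Xbp1 RNA into the form that encodes an active transcription factor, ATF6 is cut to release another, and PERK phosphorylates eIF2alpha, which lowers translation while favouring ATF4 and its targets Ddit3 (CHOP), Ppp1r15a (GADD34) and Trib3. In myeloid cells the IRE1 and XBP1 branch is best known from secretory and inflammatory states, and it is high in plasma cells.

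The promoters of 4 members are shown because they held letters known to be bound in this response, and because 2 of these genes were higher in macrophages (Hspa5 and Hsp90b1) and 2 in neutrophils (Herpud1 and Ppp1r15a). Each sequence gives the 250 bases before the RefSeq start in build GRCm38.p6, 5′ to 3′ on the gene's strand, with the last base at position -1, and capitals mark the matches.
Hspa5 promoter, chr2:34771840-34772089, plus strand: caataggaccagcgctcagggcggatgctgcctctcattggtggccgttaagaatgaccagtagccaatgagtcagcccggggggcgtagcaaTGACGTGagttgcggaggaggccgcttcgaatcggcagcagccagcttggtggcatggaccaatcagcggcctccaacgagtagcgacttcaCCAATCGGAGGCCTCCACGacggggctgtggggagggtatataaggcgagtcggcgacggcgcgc
Hsp90b1 promoter, chr10:86705445-86705694, minus strand: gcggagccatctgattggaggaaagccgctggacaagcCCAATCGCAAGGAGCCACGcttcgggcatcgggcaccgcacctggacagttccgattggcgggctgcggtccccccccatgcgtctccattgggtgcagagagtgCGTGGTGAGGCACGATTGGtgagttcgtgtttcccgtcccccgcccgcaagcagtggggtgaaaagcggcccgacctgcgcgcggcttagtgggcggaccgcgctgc
Herpud1 promoter, chr8:94386179-94386428, plus strand: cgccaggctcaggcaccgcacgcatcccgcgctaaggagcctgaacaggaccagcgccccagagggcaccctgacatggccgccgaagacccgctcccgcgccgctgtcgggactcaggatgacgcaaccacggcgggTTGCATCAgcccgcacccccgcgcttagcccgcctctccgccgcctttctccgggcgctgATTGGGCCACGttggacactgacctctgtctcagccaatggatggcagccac
Ppp1r15a promoter, chr7:45526269-45526518, minus strand: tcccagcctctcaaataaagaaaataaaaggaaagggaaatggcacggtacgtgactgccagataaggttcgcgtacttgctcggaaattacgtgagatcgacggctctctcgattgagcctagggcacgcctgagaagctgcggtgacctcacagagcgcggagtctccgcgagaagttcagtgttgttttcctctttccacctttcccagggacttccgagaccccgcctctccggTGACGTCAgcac
The letters searched on both strands were the ER stress element (ERSE, CCAAT and CCACG with 9 free bases between them), ERSE-II (ATTGG and CCACG with 1 free base between them), the core of the unfolded protein response element (UPRE core, TGACGTG), the C/EBP-ATF response element (CARE, TTGCATCA) bound by ATF4, and the cAMP response element (CRE, TGACGTCA). The ERSE began at position -65 in Hspa5 and at -212 and, on the other strand, -107 in Hsp90b1. Hspa5 also held the UPRE core at -157. Herpud1 held ERSE-II at -52 and the CARE at -112, and Ppp1r15a held the CRE, which reads the same on both strands, at -12. No match overlapped a match to another of the 5 motifs, and the other 6 members held none of these letters in the window searched, 250 bases before to 50 after the start. Among 32851 promoters cut in the same way, 0.119% held the ERSE, 0.0365% ERSE-II, 2.01% the UPRE core, 0.895% the CARE and 1.79% the CRE. GENCODE M21 places the outermost start of Hspa5 and of Hsp90b1 inside the printed window, and positions are counted from the RefSeq start.

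Ern1, the gene of the sensor IRE1alpha (minus strand of chromosome 11, 106394650 to 106487852), was the member with the clearest response to CGRP. In saline macrophages its level was 6.01, 6.57 and 10.0 CPM in the 3 libraries, and with CGRP it was 15.3, 14.0 and 14.0 CPM. Every CGRP library was above every saline library. These levels rested on 21, 22 and 28 counts with saline and 49, 38 and 28 counts with CGRP. The log2 fold change was 1.00 ± 0.27 (SE; 95% confidence interval 0.42 to 1.58), and the adjusted p over all 9393 genes tested was 0.0353 in limma-voom. Its p ranked 589 among those genes. In neutrophils the level was 8.12, 14.1 and 10.0 CPM with saline and 9.39, 10.2 and 8.73 CPM with CGRP. The neutrophil groups overlapped, with a log2 fold change of -0.13 ± 0.26 and an adjusted p of 0.894.

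Ordered by mean level, Ern1 stood at 14.4 ± 0.74 CPM in CGRP macrophages, 10.7 ± 3.03 CPM in saline neutrophils, 9.44 ± 0.75 CPM in CGRP neutrophils and 7.54 ± 2.18 CPM in saline macrophages. Neighbours in this order overlapped in every case, since the highest saline neutrophil library (14.1 CPM) lay above the lowest CGRP macrophage library (14.0 CPM). As an interaction, the macrophage effect minus the neutrophil effect was 1.14 ± 0.37 on the log2 scale, and it missed the threshold (adjusted p = 0.123 over 10694 genes). Of 10 settings besides leaving out libraries, Ern1 passed in 6 and missed in DESeq2, with library sizes not scaled by TMM, with no filter on low counts, and with counts thinned to the smallest library, with an adjusted p between 0.00678 and 0.101 over the 10. When each of the 6 macrophage libraries was left out in turn, the log2 fold change lay between 0.85 and 1.2 and the adjusted p between 0.0215 and 0.202. The threshold was passed only without saline replicate 3, and the call was lost without any of saline replicates 1 and 2 or CGRP replicates 1, 2 and 3.

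**Figure D1:**
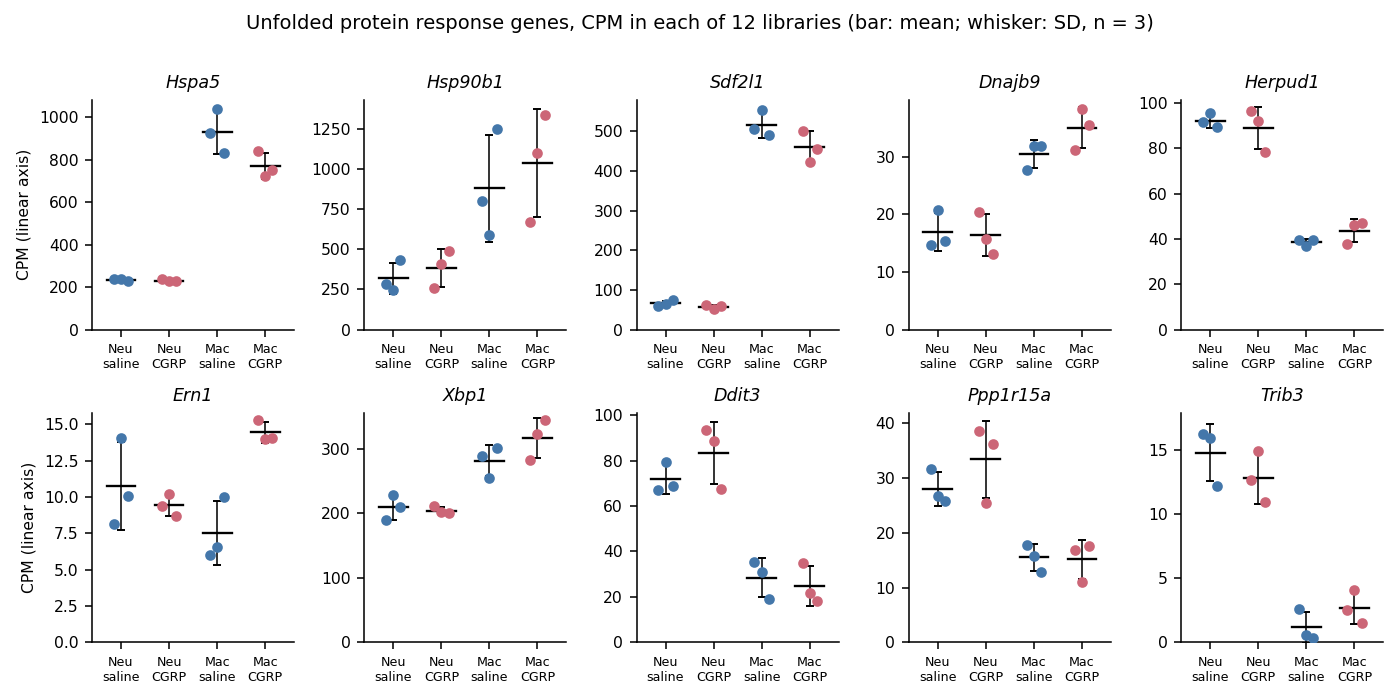
CPM (vertical axis, linear, from 0) of the 10 members in each of 12 libraries, with saline in blue and CGRP in red, Neu for neutrophils and Mac for macrophages; black bars are means and whiskers SD (n = 3). The CGRP macrophage points of Ern1, 14.0 to 15.3 CPM, lie above the saline macrophage ones. All macrophage points lie above all neutrophil points for Hspa5, Hsp90b1, Sdf2l1, Dnajb9 and Xbp1, and below them for Herpud1, Ddit3, Ppp1r15a and Trib3.

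Across the members, 0 of the 10 were called in neutrophils by limma-voom, where 2.53% of 9819 genes tested were called. The same count was 0 in edgeR and in DESeq2, and no member had an unadjusted p under 0.05 in any of these 3, against 12.8% of all genes in limma-voom. No member had groups that did not overlap, against 17.6% of all genes. The log2 fold changes ran from -0.19 for Sdf2l1 to 0.27 for Hsp90b1 with a median of -0.02, beside a median of 0.00 over all genes. The 95% intervals of the 10 members together reached from 0.629-fold to 1.58-fold, while that of Hspa5 alone was narrower, 0.882-fold to 1.11-fold.

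In macrophages 9 members passed the filter on low counts and 1, Ern1, was called, where 7.43% of the 9393 genes were called in either direction and 3.46% as higher. Ern1 was also the only member of the 10 whose groups did not overlap, against 24.1% of all genes in either direction. The other 8 tested members had log2 fold changes from -0.27 for Hspa5 to 0.25 for Hsp90b1, with adjusted p from 0.265 to 0.923. The median of the 9 was 0.17, beside 0.00 over all genes. Trib3, a pseudokinase induced by CHOP and ATF4, fell under the filter with 9, 2 and 1 counts in saline libraries and 8, 11 and 3 in CGRP libraries. With no filter its log2 fold change was 1.38 ± 0.65 (adjusted p = 0.308). For the interaction, 0 of 10 members were called, where 2.36% of 10694 genes were. Unadjusted p-values under 0.05 were found for Ern1 and Trib3 (2 members), against 13.2% of all genes. Trib3 entered this test only through the neutrophils, where it is high, and without it only Ern1 was left.

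**Figure D2:**
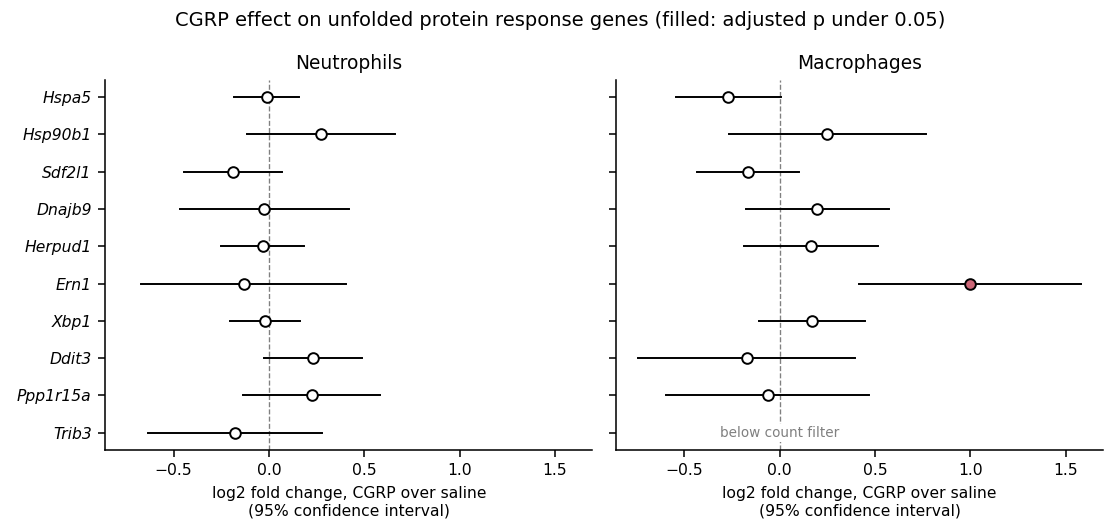
Log2 fold change of CGRP over saline (horizontal axis) with its 95% confidence interval for each member in neutrophils (left) and macrophages (right); the filled point passed an adjusted p of 0.05. Every neutrophil interval holds 0, and in macrophages only that of Ern1, 0.42 to 1.58, does not.

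Xbp1, the transcription factor whose RNA IRE1alpha splices (plus strand of chromosome 11, 5520659 to 5525893), did not pass the test. Its level in macrophages was 289, 254 and 301 CPM with saline and 282, 323 and 344 CPM with CGRP. The groups overlapped, and the log2 fold change was 0.17 ± 0.13 (adjusted p = 0.528). In neutrophils it was 189, 229 and 209 CPM with saline and 211, 202 and 199.9 CPM with CGRP, with a log2 fold change of -0.02 ± 0.09. Of the listed transcripts that IRE1 is known to cleave, 2 of 5 could be tested in each cell type and 0 were called. Of all genes, 2.53% were called in neutrophils and 7.43% in macrophages. In neutrophils the groups did not overlap for 1 of the 2, against 17.6% of all genes. This was Hgsnat, at 29.7, 30.9 and 34.4 CPM with saline and 24.0, 26.6 and 15.3 CPM with CGRP.

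Hspa5, the most studied ER chaperone and the standard readout of this response (plus strand of chromosome 2, 34771970 to 34777547), was in neutrophils at 237, 237 and 230.3 CPM with saline and 236, 229.7 and 226 CPM with CGRP. In macrophages it was 926, 1042 and 830.2 CPM with saline and 839.9 CPM, 721 CPM and 751 CPM with CGRP. The lowest saline library lay below the highest CGRP library, so that the groups overlapped. The macrophage log2 fold change was -0.27 ± 0.13 with an interval of -0.54 to 0.01 (adjusted p = 0.265). Sdf2l1, a partner of ER DnaJ co-chaperones (minus strand of chromosome 16, 17130138 to 17132383), was 505, 554 and 489 CPM in saline macrophages and 501, 422 and 456 CPM with CGRP, with overlapping groups and a log2 fold change of -0.17 ± 0.13.

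Hsp90b1 (GRP94), the ER member of the HSP90 family (minus strand of chromosome 10, 86690209 to 86705509), varied most within groups among the 9 members tested in both cell types. It was 282, 244 and 429.8 CPM in saline neutrophils, 258, 407 and 490.5 CPM in CGRP neutrophils, 798, 590.2 and 1244 CPM in saline macrophages, and 671, 1095 and 1337 CPM in CGRP macrophages. In both cell types saline replicate 3 and CGRP replicates 2 and 3 were high. The SD within groups was 0.49 on the log2 scale, above that of 99.2% of the 522 genes of like abundance (mean log2 CPM over 8), whereas for Hspa5 it was 0.10. Over the deviations of those 522 genes from their group means, Hsp90b1 had the largest loading on the first principal component, which held 61.9% of the variance. The CGRP effect on Hsp90b1 was 0.27 ± 0.19 in neutrophils and 0.25 ± 0.24 in macrophages, and the part of this component in it was not tested. In neutrophils it lay between 0.077 (without CGRP replicate 3) and 0.55 (without CGRP replicate 1) when a library was left out, and it passed the test in none of the 6 omissions, with an adjusted p of 0.05004 to 0.930. Of the 31-base sequences at the ends of its transcripts, 11% also occur in an overlapping pseudogene on the opposite strand or in a processed transcript on the same one, which had at most 18 counts and 0 counts in any library.

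Dnajb9 (ERdj4) recruits substrates for degradation and returns BiP to IRE1 (minus strand of chromosome 12, 44205559 to 44210326), and Herpud1 (HERP) organises the ubiquitin ligase complex of ER-associated degradation (plus strand of chromosome 8, 94386438 to 94395377). Dnajb9 ranged from 13.1 to 20.8 CPM in the 6 neutrophil libraries and from 27.7 to 38.3 CPM in the 6 macrophage libraries, with 8.63% of its end sequences shared with the gene Gm6568. Herpud1 ranged from 78.5 to 96.5 CPM in neutrophils and from 36.7 to 47.1 CPM in macrophages. Neither differed with CGRP beyond the spread, with log2 fold changes of -0.02 ± 0.21 and -0.03 ± 0.10 in neutrophils and 0.20 ± 0.18 and 0.17 ± 0.17 in macrophages.

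The members of the PERK and ATF4 branch also overlapped between CGRP and saline. Ddit3 (plus strand of chromosome 10, 127290774 to 127296288), the transcription factor CHOP linked to cell death under long ER stress, was 67.2, 79.5 and 68.9 CPM in saline neutrophils and 93.6, 88.4 and 67.6 CPM with CGRP. It was 35.5, 31.1 and 19.0 CPM in saline macrophages and 35.0, 21.7 and 18.1 CPM with CGRP. The log2 fold changes were 0.23 ± 0.12 (adjusted p = 0.458) and -0.17 ± 0.27 (adjusted p = 0.786). Ddit3 overlaps exons of Mars on the opposite strand, and since the strand setting of the counting is not given in the sources used here, reads of the pair may not be told apart. Mars itself had log2 fold changes of -0.16 and -0.17. Ppp1r15a, which directs the removal of phosphate from eIF2alpha (minus strand of chromosome 7, 45522916 to 45526268), ranged from 25.4 to 38.5 CPM in neutrophils and from 11.05 to 17.7 CPM in macrophages, with log2 fold changes of 0.22 ± 0.17 and -0.06 ± 0.25. Trib3 (minus strand of chromosome 2, 152337422 to 152344032) ranged from 10.9 to 16.2 CPM in neutrophils, where its log2 fold change was -0.18 ± 0.22.

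Between saline macrophages and saline neutrophils, 9 of the 10 members differed, where 67.9% of 10694 genes did, 32.5% being higher and 35.4% lower in macrophages. The same 9 had groups that did not overlap, against 70.4% of all genes, so that the share of members is above a background that is itself high. Trib3 entered this test only through the neutrophils, where it is high, and without it 8 of 9 members differed. Higher in macrophages were Sdf2l1 (7.83-fold, 95% confidence interval 6.60 to 9.28), Hspa5 (3.94-fold, 3.40 to 4.57), Hsp90b1 (2.69-fold, 1.87 to 3.89), Dnajb9 (1.79-fold, 1.36 to 2.36) and Xbp1 (1.34-fold, 1.14 to 1.57). Lower in macrophages were Trib3 (a fitted 14.1-fold, uncertain at its counts), Ddit3 (2.56-fold), Herpud1 (2.40-fold) and Ppp1r15a (1.80-fold). For Trib3 the log2 difference was -3.82 with a 95% interval of -4.87 to -2.76, on 52, 52 and 34 counts in neutrophils against 9, 2 and 1 in macrophages. It was -4.55 without macrophage saline replicate 1 and -3.38 without macrophage saline replicate 3, the ends of its range over 12 omissions. Ern1 did not pass the test (log2 difference -0.54 ± 0.27, adjusted p = 0.0807). Mars, which overlaps Ddit3, was 73.4 ± 13.3 CPM in saline neutrophils and 27.7 ± 2.81 CPM in saline macrophages, the same direction as Ddit3.

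Culture for 3 days, the medium and M-CSF differed together with the cell type and cannot be told apart from it. The neutrophil libraries also held RNA of markers listed for other marrow cells or for earlier stages. In saline neutrophils the 5 erythroid markers summed to 6445 ± 814 CPM (Hbb-bs at 3805 CPM) against 21.3 ± 1.40 CPM in saline macrophages. The 4 early granulocyte markers summed to 3653 ± 237 CPM (Elane at 1575 CPM) against 6.98 ± 1.17 CPM, and the 6 eosinophil, basophil and mast cell markers to 1052 ± 87.7 CPM (Prg2 at 561 CPM) against 10.3 ± 0.93 CPM, with Epx at 0. The 6 plasma cell markers summed to 1883 ± 123 CPM (Igkc at 1653 CPM) against 96.9 ± 1.46 CPM, the latter mostly Sdc1 at 68.8 CPM. Of the 4 plasma cell markers tested, 3 were lower in macrophages and 1, Sdc1, was higher there (log2 difference 3.57). The 5 B cell markers summed to 106 ± 7.46 CPM against 32.3 ± 1.14 CPM, with Cd79a and Ms4a1 among those at 0 in macrophages, and the 6 T and NK cell markers to 122 ± 7.26 CPM against 0.70 ± 0.30 CPM, with Cd3e, Cd3d, Trac and Gzma at 0. Plasmacytoid dendritic cell markers (5 genes, led by Bst2) were at 76.8 ± 4.66 against 237 ± 22.1 CPM. Of the 3 tested, 2 were higher and 1 lower in macrophages, the lower being Siglech at 3.74 ± 1.11 against 1.18 ± 0.60 CPM. Platelet markers (5 genes, led by Pf4) were at 167 ± 1.25 against 760.2 ± 186 CPM. This sum was mostly Pf4, at 142 against 757 CPM, and of 4 tested markers 1 was higher and 3 were lower in macrophages. The part of the cells that held these markers in the resting difference was not tested.

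The wider pathway was described at rest from lists of genes by role that include the members, beside 32.5% of all genes called as higher and 35.4% as lower in macrophages. Of 21 ER chaperones, co-chaperones and disulfide isomerases tested, 19 were higher and 1 lower in macrophages, with a median log2 difference of 1.43 beside -0.03 over all genes. Calr (calreticulin, a lectin chaperone) was 127 ± 15.3 CPM in saline neutrophils and 496 ± 34.0 CPM in saline macrophages, and Manf, an ER stress-induced secreted factor, 112 ± 7.39 and 289 ± 31.8 CPM. The 1 lower gene was Ero1l, the oxidase that keeps disulfide isomerases active, at 77.1 ± 9.07 against 16.7 ± 3.25 CPM. Among 17 tested genes of ER-associated degradation, 10 were higher and 2 lower (Herpud1 and Dnajc10) with a median of 0.435. Among 20 genes of ER translocation and vesicle coats, 11 were higher and 2 lower (Sec11c and Sec62) with a median of 0.386.

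The integrated stress response list, made of PERK and ATF4 branch genes, was mostly lower in macrophages. Of 25 tested genes, 20 were lower and 2 higher in macrophages, with a median of -1.33. Chac1, Trib3, Ddit4 and Slc7a5 reached the filter's minimum in every saline library of neutrophils only, and without these 4 the list had 16 lower and 2 higher of 21, with a median of -0.895. Chac1, which degrades glutathione, was 25.5 ± 3.83 CPM in saline neutrophils and 1.53 ± 0.52 CPM in saline macrophages, the latter on 5, 7 and 3 counts. Asns (asparagine synthetase) was 239 ± 24.3 against 27.0 ± 2.32 CPM. The 2 higher genes were Atf3, at 16.4 ± 2.34 against 249.6 ± 32.4 CPM, and the amino acid transporter subunit Slc3a2. Among the 14 sensors and transcription factors, 4 were higher and 4 lower, near the shares of all genes, with a median of 0.0898. Eif2ak3 (PERK) was lower in macrophages at 4.57 ± 1.37 CPM against 16.04 ± 3.03 CPM and Atf4 at 61.3 ± 8.03 against 115 ± 5.24 CPM, while the test was not passed by Atf6 at 22.1 ± 6.52 against 18.8 ± 2.33 CPM.

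**Figure D3:**
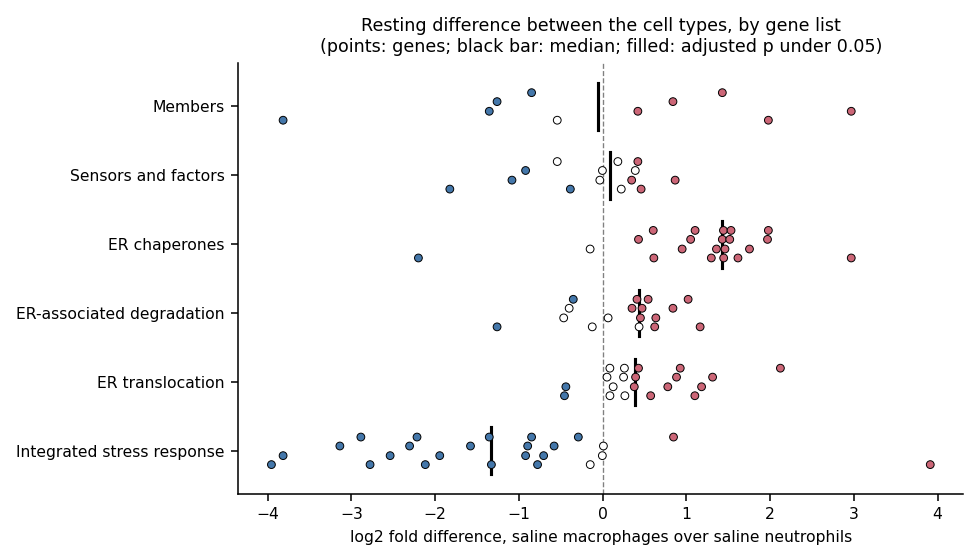
Log2 difference of saline macrophages over saline neutrophils (horizontal axis) for each tested gene of 6 lists (rows; some genes stand in more than 1), with filled points at an adjusted p under 0.05 (red higher, blue lower in macrophages) and black bars at the median. The ER chaperones lie to the right, with a median of 1.43, and the integrated stress response genes to the left, with a median of -1.33, or -0.895 without the 4 genes that reached the filter's minimum in neutrophils only.

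With CGRP the ER side of these lists stayed below the threshold. None of 21 ER chaperones, 17 degradation genes and 20 translocation genes was called in neutrophils or in macrophages by limma-voom (0 in each list). Of all genes, 2.53% were called in neutrophils and 7.43% in macrophages. The median log2 fold changes of these lists lay between 0.0233 and 0.166 in the 6 combinations. Groups did not overlap for 3 chaperones, 1 degradation gene and 5 translocation genes in neutrophils and for 4, 1 and 4 in macrophages, where the shares of all genes were 17.6% and 24.1%. Of the 14 sensors and factors, Ern1 in macrophages was the only call. Atf4 was 56.9, 56.5 and 70.6 CPM in saline macrophages and 48.4, 54.5 and 44.1 CPM with CGRP, so that all CGRP libraries were lower, but it did not pass the test (log2 fold change -0.30 ± 0.16, adjusted p = 0.329).

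The integrated stress response list held calls with CGRP in both cell types, and they went in both directions. In macrophages 3 of 22 tested genes rose and 1 fell, beside 3.46% of all genes called as higher and 7.43% in either direction. Atf3, a transcription factor induced by ATF4 and by many other signals, was 238 CPM, 286 CPM and 224 CPM with saline and 64.7, 55.2 and 44.1 CPM with CGRP, with no overlap. This was 4.50-fold lower with CGRP (log2 fold change -2.17 ± 0.17, adjusted p = 5.61e-07), and the p ranked 10 among all genes. Sesn2 and Ddit4 (REDD1), which both restrain the growth kinase complex mTORC1, rose. Sesn2 was 5.72, 5.08 and 11.1 CPM with saline and 21.6, 24.3 and 21.1 CPM with CGRP (log2 fold change 1.72 ± 0.29, adjusted p = 0.00106). The counts of Ddit4 were 2, 6 and 1 in saline libraries against 33, 16 and 13 in CGRP libraries. Its log2 fold change was 3.10 ± 0.55 (adjusted p = 0.00188), with a wide 95% interval of 3.802-fold to 19.3-fold. Ddit4 passed the filter on low counts only through its CGRP libraries, and without it 2 of 21 tested genes rose.

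Slc7a11, the cystine importer that supplies glutathione synthesis, was the gene of this list that rose in both cell types. It was 22.2, 21.4 and 22.2 CPM in saline neutrophils and 41.8, 48.2 and 42.3 CPM with CGRP (log2 fold change 1.02 ± 0.15, adjusted p = 3.27e-04). In macrophages it was 8.86, 9.56 and 7.52 CPM with saline and 18.7, 19.9 and 20.6 CPM with CGRP (1.17 ± 0.24, adjusted p = 0.00530). The groups did not overlap in either cell type, and the interaction was 0.16 ± 0.27 (adjusted p = 0.865). In neutrophils 1 of 25 tested genes rose, Slc7a11, and 1 fell, beside 2.53% of all genes called in either direction. Nupr1, a small stress-induced nuclear protein, was 95.3, 85.3 and 79.6 CPM with saline and 58.3, 59.3 and 68.1 CPM with CGRP, and it fell (log2 fold change -0.49 ± 0.12, adjusted p = 0.0237). Nupr1 missed the threshold when saline replicate 1 or 2 or CGRP replicate 1 or 2 was left out, with an adjusted p of 0.0156 to 0.160 over the 6 omissions, and with DESeq2, without TMM and with thinned counts.

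**Figure D4:**
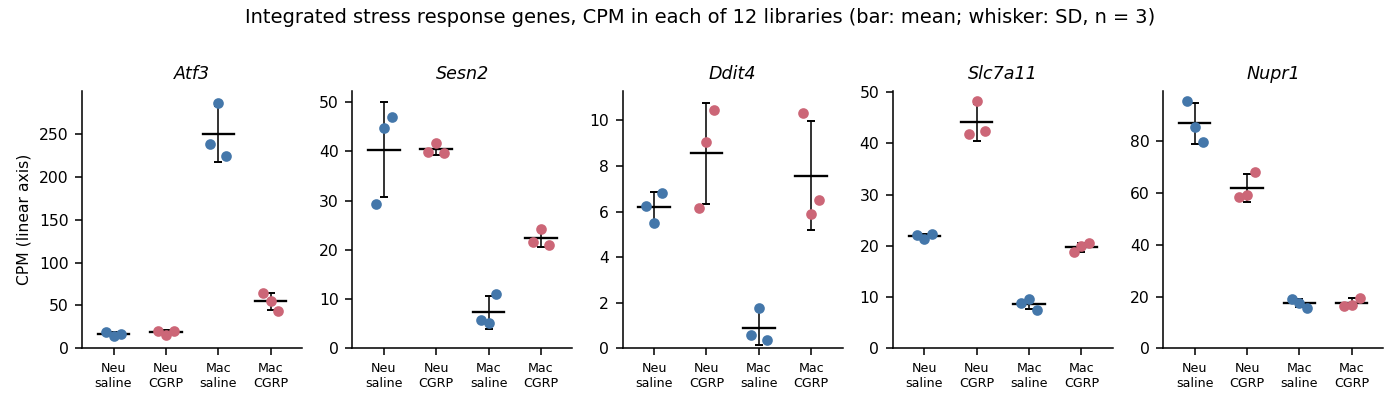
CPM (vertical axis, linear, from 0) of the 5 integrated stress response genes called with CGRP in either cell type, in each of 12 libraries, with saline in blue and CGRP in red; black bars are means and whiskers SD (n = 3). In macrophages Atf3 drops from 224 to 286 CPM with saline to 44.1 to 64.7 CPM with CGRP, while Slc7a11 rises in both cell types.

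A further list held 12 genes, for eIF2alpha kinases and for subunits of eIF2 and of its exchange factor eIF2B. In macrophages 2 of them fell and 10 did not pass, where 7.43% of all genes were called, and 0 of 12 were called in neutrophils. Eif2ak4 (GCN2), the kinase that senses amino acid shortage, was 21.2, 12.8 and 12.5 CPM with saline and 6.87, 8.10 and 5.02 CPM with CGRP (log2 fold change -1.15 ± 0.32, adjusted p = 0.0366). Eif2b3, a subunit of the exchange factor eIF2B, was 23.4, 17.3 and 18.3 CPM with saline and 11.6, 9.21 and 11.5 CPM with CGRP (-0.86 ± 0.25, adjusted p = 0.0436). Both rested on at most 82 counts in a macrophage library and lost their call without saline replicate 1 or without any of the 3 CGRP libraries, with adjusted p up to 0.193 and 0.216. Both also missed the threshold with thinned counts, and Eif2b3 with DESeq2 and with no filter on low counts.

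**Figure D5:**
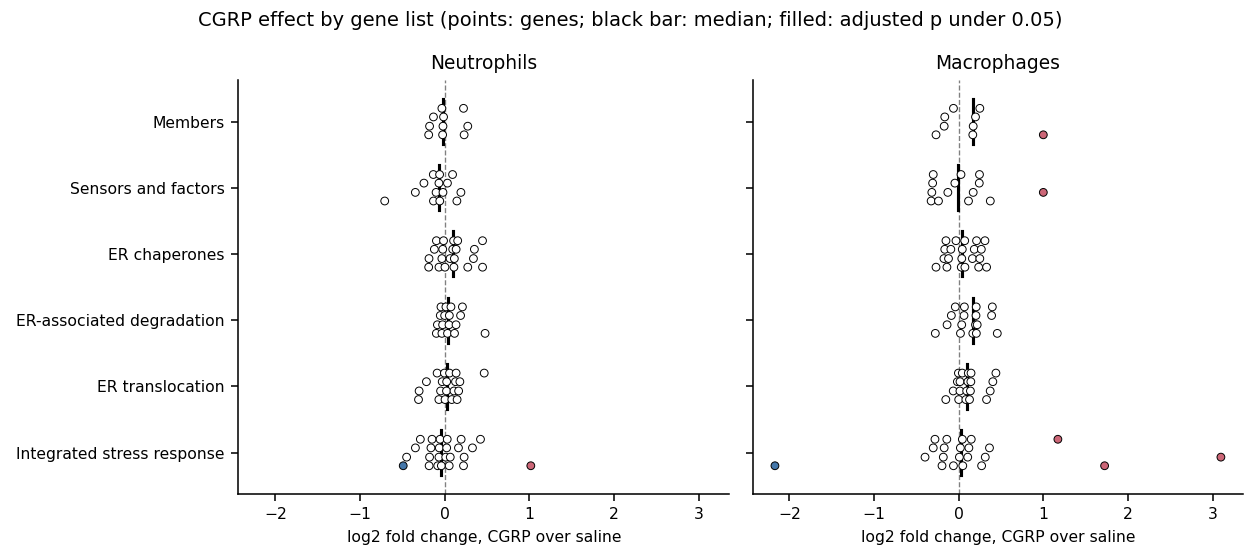
Log2 fold change of CGRP over saline (horizontal axis) for each tested gene of the same 6 lists in neutrophils (left) and macrophages (right), with filled points at an adjusted p under 0.05 and black bars at the median. The chaperone, degradation and translocation lists have no filled point, and the filled points of the integrated stress response list lie on both sides of 0, from -2.17 to 3.10 in macrophages.

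For comparison, genes known to rise with cAMP, the second messenger of the CGRP receptor, were called in both cell types, 2 of 10 tested in neutrophils and 6 of 7 in macrophages, all as higher, where 2.53% and 7.43% of all genes were called in either direction. This list was chosen with earlier results of these data known, so its share of calls is not an independent standard. In macrophages Nr4a2 passed the filter only through its CGRP libraries, and without it 5 of 6 were called. Crem, a cAMP-responsive transcription factor, went from 13.7 ± 1.33 to 178 ± 12.6 CPM in macrophages and Pde4b, which degrades cAMP, from 12.2 ± 0.46 to 134 ± 3.66 CPM in macrophages and from 52.5 ± 4.04 to 79.3 ± 5.97 CPM in neutrophils. Pde4b in neutrophils lost its call without saline replicate 2. Against these changes the ER chaperones and the members other than Ern1 did not pass the test. Of cytosolic and mitochondrial heat shock genes, 0 of 10 tested were called in neutrophils and 1 of 9 in macrophages, the latter near the share of all genes. This was Hspd1, a mitochondrial chaperonin, which fell (log2 fold change -0.53 ± 0.15, adjusted p = 0.0496), with 44.4% of its end sequences shared with other genes and the call lost with no filter on low counts and without saline replicate 1 or CGRP replicate 2 or 3 (adjusted p up to 0.292).

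The profile of Ern1 over the 12 libraries, centred within each cell type, was closest to those of Uap1, Jade1, Limk2, Ankrd44 and Prkd2 among 8634 candidate genes. Their root mean square differences from it were 0.191, 0.196, 0.203, 0.205 and 0.208 on the log2 scale, where Ern1 itself varied by 0.416 about its means. None of these 5 was called with CGRP in either cell type. Uap1, for example, was 9.16 ± 1.70 CPM in saline macrophages and 15.0 ± 0.84 CPM with CGRP (adjusted p = 0.0971).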

How the data were processed

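Per the labels and the study's methods, the authors ran nf-core/rnaseq with removal of PCR copies by unique molecular identifiers, used STAR and the GRCm38 genome for alignment and featureCounts for counting. They deposited whole-number counts, unnormalized, as 1 table per cell type. The annotation release, strand setting and any low-count filter are not given in the sources used here. Column names gave the sample of each column, and no library copied another. The 10 members were taken by gene name, and the members and gene lists were chosen with earlier results of these data known.

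Each cell type was tested on its 6 libraries with limma-voom (limma 3.58.1 in R 4.3.3) after TMM scaling, as in the study's methods, and after a low-count filter chosen here, edgeR 4.0.16's filterByExpr (minimum count 10). Tests were two-sided with Benjamini-Hochberg adjustment over all genes tested and a threshold of 0.05. The interaction and the resting contrast came from limma-voom on all 12 libraries. The lists were described by counts and medians only, and overlap of list symbols with the tables failed for Ero1a, Vimp and Icer (0 rows) and for Srp54a (2 rows), which were left out. Named genes were the members, up to 4 called genes with the smallest adjusted p from each list and cell type, the 5 profiles nearest to the leading member, the most abundant gene of each marker list with the markers at 0, and genes overlapping a member, and a few genes that this rule or a count would name are not reported here. The floor was 3 counts per library, and floors and intervals cover counting error or library spread only. Shared sequence was the share of 31-base sequences in the last 500 bases of a gene's transcripts that occur in another GENCODE M21 gene, where 52403 of 52636 identifiers were found. Positions are from GENCODE M21 (GRCm38) and promoters from RefSeq (GRCm38.p6). The alternatives tried were DESeq2 1.42.0, edgeR's quasi-likelihood test, DESeq2 size factors, no TMM, no filter, at least 10 counts in every library, a replicate block, voomWithQualityWeights, thinned counts, a single fit over 12 libraries, and each library left out. The fitting steps were tested on simulated data. Figures used matplotlib 3.10.9 and pandas 2.3.3 under Python 3.11.15.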

Additional observations from a re-analysis of the deposited data

Results flagged for a closer look

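For 12 genes of the integrated stress response, immediate early and cAMP lists and 1 gene of the marker lists, the effect of CGRP differed between the cell types by the interaction test in limma-voom (252 of 10694 genes passed it). No member was among them. The values are the log2 effect in macrophages minus that in neutrophils. In the integrated stress response list they were -2.35 for Atf3 (adjusted p = 1.06e-05), 1.68 for Sesn2 (0.00571) and 2.66 for Ddit4 (0.0195). The Sesn2 difference missed the threshold without macrophage saline replicate 1, and that of Ddit4 in 4 of 12 omissions, without macrophage saline replicate 1 or 3, neutrophil saline replicate 3 or neutrophil CGRP replicate 1 (adjusted p up to 0.112).

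Among the immediate early genes, which respond at once to many signals, the difference was -1.64 for Jun (adjusted p = 9.72e-05), 0.74 for Junb (0.0168), 1.16 for Btg2 (4.02e-05) and 1.32 for Ier3 (0.00207). Among the cAMP-induced genes it was 2.88 for Crem (1.29e-06), 2.86 for Pde4b (1.98e-08), 2.75 for Nr4a2 (3.74e-04), 2.33 for Pde3b (0.00146) and 0.77 for Rgs2 (0.0107). Among the markers it was 1.85 for Sdc1 (0.00960). The Junb difference missed the threshold without TMM (adjusted p = 0.123) and in 5 of 12 omissions, without saline replicate 3 or CGRP replicate 1 or 2 of neutrophils, or saline replicate 1 or CGRP replicate 3 of macrophages (adjusted p up to 0.0802). That of Rgs2 was lost without neutrophil CGRP replicate 3 (0.0548) and that of Sdc1 without neutrophil saline replicate 1 or 3 (up to 0.0835). The others passed in each omission and setting in which they were tested. Ier3, Rgs2 and Sdc1 were chosen after their values were seen. Junb overlaps Prdx2 on the opposite strand, with up to 1570 counts in a library.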

How the results depend on the processing

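The resting comparison held most firmly: the 9 members called were called in each alternative except that Trib3 was not tested with at least 10 counts in every library (8 called), and that Ern1 was added (10 called) with quality weights and without saline replicate 1 of neutrophils or 3 of macrophages. The number of members called in macrophages was 0 with DESeq2, without TMM, without a filter and with thinned counts, and 0 to 1 when a library was left out. For the interaction, quality weights called 1 member, Ern1.

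Genes called in neutrophils (248) were 137 in the single fit and 138 to 234 with a library left out. In macrophages (698) they were 1406 with quality weights and 1050 in the single fit, and 347 to 765 with a library left out. For the interaction (252) they were 520 with quality weights and 149 to 328 with a library left out. Integrated stress response genes called in neutrophils (2) were 1 with DESeq2, without TMM and with thinned counts, and 1 to 2 with a library left out. Among chaperone, degradation and translocation genes (0 called), neutrophils had 1 without a filter and with quality weights, Sec11c in each case, and 0 to 1 with a library left out. Macrophages had 4 with quality weights (among them Os9, Sec62 and Srpr), 3 in the single fit (Os9, Sec62 and Sec23b) and 0 to 3 with a library left out. These genes were named after their values were seen. The causes were not tested.

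Changes of sign occurred for uncalled log2 fold changes near 0. Without TMM, Hspa5 (0.043), Xbp1 (0.035), Dnajb9 (0.032) and Herpud1 (0.025) in neutrophils and Sdf2l1 in the interaction (-0.087) reversed. So did Ppp1r15a in macrophages with thinned counts (0.024) and Hsp90b1 in the interaction with quality weights (0.084). With libraries left out, the ranges that crossed 0 were, in neutrophils, Xbp1 -0.087 to 0.037, Ern1 -0.32 to 0.081, Dnajb9 -0.18 to 0.13, Herpud1 -0.081 to 0.037, in macrophages Ddit3 -0.48 to 0.0096, Ppp1r15a -0.19 to 0.16, Hsp90b1 -0.0092 to 0.53, and in the interaction Hsp90b1 -0.28 to 0.27 and Sdf2l1 -0.071 to 0.095.

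The deviations of same-numbered libraries correlated weakly (0.0283, 0.0069 and 0.152 in neutrophils and 0.0628, -0.176 and 0.274 in macrophages), at or under 0.1 in 4 of 6 pairs, so the numbers were not used as pairs. In fits with this number as a replicate block, 289 genes were called in neutrophils, 1007 in macrophages, 303 for the interaction and 7434 at rest. The block was nested in the cell type for the interaction. At rest it was shared by number across the cell types, a pairing that the labels do not give. Of 6 saline libraries, 4 correlated best with the CGRP library of their own number, a hint from the data and not the design. The highest correlation, 0.389, joined macrophage saline replicate 2 and CGRP replicate 1, which differ in number.

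Trib3, with at most 11 counts in a macrophage library, did not pass the filter there, and Ern1, with 21 to 49 counts, lost its call when counts were thinned.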

Other observations

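Among the immediate early genes, 3 of 10 tested rose in neutrophils (Fos, Dusp1 and Junb), and in macrophages 5 rose and 2 fell, where 2.53% and 7.43% of all genes were called. Fos, a subunit of the transcription factor AP-1, went from 52.7 ± 6.58 to 128 ± 18.2 CPM in neutrophils and from 157 ± 12.7 to 267 ± 23.2 CPM in macrophages. Its partner Jun went from 199 ± 34.8 to 56.1 ± 5.56 CPM in macrophages (log2 fold change -1.80, adjusted p = 2.92e-06), alongside the fall of Atf3, whereas Junb went from 187 ± 27.3 to 394.7 ± 52.7 CPM. Dusp1 and Junb in neutrophils lost their calls in several omissions of a library (passing in 1 and 2 of 6) and in 4 and 3 of 10 other settings, and Dusp1 overlaps Ergic1 on the opposite strand.

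Among the markers of other cell types, 2 were called with CGRP in macrophages. Of the 6 plasma cell markers, 3 could be tested and Sdc1 (syndecan-1) rose from 68.8 ± 6.58 to 274 ± 43.6 CPM (log2 fold change 1.99, adjusted p = 5.61e-07). The other 2 tested were not called. The 6 markers together summed to 96.9 ± 1.46 CPM with saline and 306 ± 35.2 CPM with CGRP, with Mzb1 at 0 with CGRP. The rise of this sum was mostly Sdc1, since Igkc went from 22.8 ± 6.73 to 26.6 ± 8.38 CPM and Jchain from 3.45 ± 2.22 to 4.26 ± 1.97 CPM. Of the plasmacytoid dendritic cell markers, Tcf4 rose (log2 fold change 0.73, adjusted p = 0.00474). No marker was called in neutrophils. The neutrophil and the monocyte/macrophage markers had no call in macrophages, but 8 of 8 and 10 of 10 tested had log2 fold changes above 0, with medians of 0.379 and 0.307 beside 0.00 over all genes, and groups did not overlap for 2 and 5 of them, against 24.1% of all genes.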
